A study of Mus musculus with 7 samples.

Results

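A total of 1205 windows of 200 bp carried more BRG1 ChIP-seq reads in stimulated Th2 cells than in stimulated Th1 and Th17 cells, out of 7552364 autosomal windows with at least 1 read. BRG1 is the ATPase of SWI/SNF (BAF), a complex that spends ATP to slide or evict nucleosomes, and ChIP-seq with an antibody against it maps where the complex sits on chromatin. Each member window had a stimulated Th2 level of at least 3 RPM (distinct reads per 1000000 distinct reads of the library), at least 2.5 times the RPM of both stimulated Th1 and stimulated Th17, and at least 3 times the input RPM plus 0.3. Those 4 libraries chose the windows, so their values are given as a description. The naive, resting Th1 and resting Th2 libraries took no part in the choice, and the results turn on them.

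All cells were CD4+ helper T cells of Balb/C mice. Naive CD4+CD62L+ cells were 95% pure, came from spleens and lymph nodes of mice aged 4 to 6 weeks, and were used straight from the animals. Effector cells grew from such cells in a single round of culture with anti-CD3 and anti-CD28. Th1 cultures received IL-12 (1 ng/ml) and anti-IL-4 (10 μg/ml), and Th2 cultures IL-4 (10 ng/ml) and anti-IFNγ (10 μg/ml), both with plate-bound antibodies (1 and 2 μg/ml) and IL-2 (100 U/ml). Th17 cultures received IL-6 (100 ng/ml), IL-1β (10 ng/ml), TGF-β (1 ng/ml) and both blocking antibodies (10 μg/ml each), with soluble anti-CD3 (4 μg/ml) and anti-CD28 (1 μg/ml), and later IL-23 (10 ng/ml). Stimulated cells were given PMA (50 ng/ml) and ionomycin (500 ng/ml) for 1.5 h, which act downstream of the T cell receptor. Chromatin was crosslinked, treated with MNase and sonicated, BRG1 was precipitated with the J1 antibody, and libraries went through 18 PCR cycles. The input was DNA of pooled CD4+ helper T cells without immunoprecipitation. Each group was 1 library. No difference therefore has a replicate check or a p-value, ratios compare libraries, and the 95% intervals cover counting error only. How many mice or cultures stood behind a library is not given in the sources used here.

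Th2 cells secrete IL-4, IL-5 and IL-13 and depend on GATA3 and STAT6. During differentiation the chromatin of lineage genes is opened and marked before a later stimulus sets off transcription. BRG1 is known to be needed for helper T cell cytokine expression. Reading stimulated Th2 windows in cells that were not stimulated asks whether the complex was already there beforehand, and whether it was there before differentiation. The files give positions on mm9, for which no annotation was used here, so windows are named by coordinates. The subset labels could not be checked against marker genes for the same reason, and gene lists and motifs were not analysed here.

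The libraries held 1340208 to 7892944 distinct reads, lowest in resting Th2 and highest in stimulated Th17. Reads that repeated a position made up 28.5 to 41.4% of the 3 unstimulated libraries and 10.2 to 11.8% of the stimulated ones, and 1 read was kept per position. One read was worth 0.746 RPM in resting Th2, 0.553 in resting Th1 and 0.483 in naive, so single windows are coarse at rest and the results below pool reads over windows.

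Pooled over the windows chosen in stimulated Th2, BRG1 reads were above input in resting Th2 and less so in resting Th1, and level with input in naive cells. The pooled mean rests on part of the members: 300 had no resting Th2 read, and 208 (17.3%) met the level and input conditions there, as did 0.171% of all windows with a read and 31.0% of the windows bound in stimulated Th2 without a preference. The mean level over all 1205 members was 1.88 RPM in resting Th2 (1.81 to 1.94), 0.706 in resting Th1 (0.672 to 0.743) and 0.296 in naive (0.275 to 0.319). The input, which helped to choose the windows, stood at 0.299 RPM (0.283 to 0.316), so comparisons with it are a description. Over all windows with a read, naive and input each had a mean of 0.127 RPM, so both were raised in the members. Among the libraries that chose the windows, stimulated Th2 had 3.98 RPM, stimulated Th1 0.945 and stimulated Th17 0.646. The intervals of resting Th2, resting Th1 and naive did not overlap, while those of naive and input did.

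**Figure D1:**
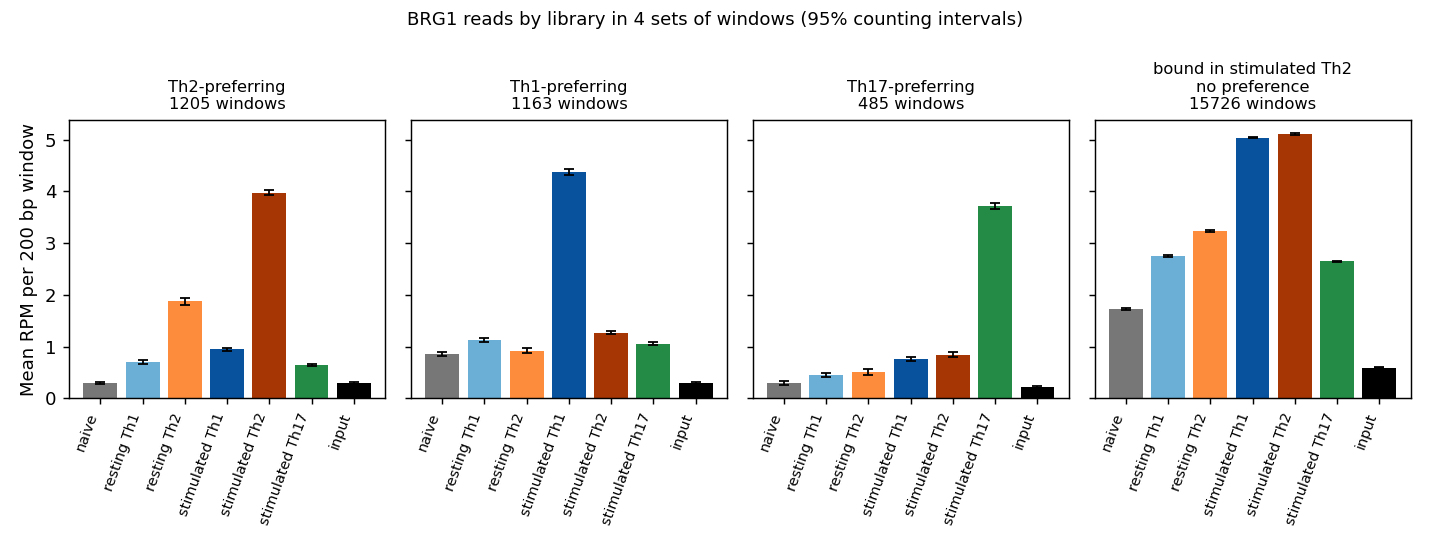
Mean RPM per 200 bp window (y axis) in each of the 7 libraries (bars, x axis) for the 1205 Th2-preferring windows and 3 other sets, with 95% counting intervals. In the Th2-preferring windows resting Th2 stands at 1.88 RPM, while naive (0.296) is level with input (0.299).

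Resting Th2 exceeded resting Th1 by a pooled ratio of 2.66 (2.498 to 2.83, from 3031 and 1539 reads). Against naive, resting Th2 was 6.33-fold higher (5.84 to 6.87), and resting Th1 2.38-fold higher (2.18 to 2.61). Naive over input, a description since input helped to choose the windows, was 0.990 (0.903 to 1.08). It was 1.47 (1.39 to 1.55) with members chosen on 50% of the stimulated reads, and 0.535 at a level of at least 5 RPM. The direction of the 3 ratios between unstimulated libraries was the same under every alternative run. Their size moved with the scale and with the choice of members. With libraries scaled to each other over 27768 windows bound in any stimulated library, resting Th2 over naive was 3.13 by the median ratio or 3.66 by summed reads, and resting Th1 over naive 1.39 or 1.56. Over those windows the median ratio to stimulated Th2 was 0.229 in naive, 0.393 in resting Th1 and 0.454 in resting Th2. With members chosen on 50% of the stimulated reads, resting Th2 over naive was 3.48.

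A comparison that does not depend on library scale sets the members against the 15726 windows that met the level and input conditions in stimulated Th2 but had no such preference. These include windows that met the fold condition over only 1 of the other stimulated libraries. Of the 16931 windows with the level and input conditions, members included, 1660 met the fold over stimulated Th1 and 6602 the fold over stimulated Th17. There, resting Th2 over resting Th1 was 1.17 and resting Th2 over naive 1.87. Relative to those windows, the members were 2.26-fold higher in resting Th2 over resting Th1 (2.13 to 2.41) and 3.39-fold higher in resting Th2 over naive (3.12 to 3.67). The resting Th1 to naive ratio was 1.50-fold higher (1.37 to 1.63). The members differed from those windows less in resting Th2 than in naive and resting Th1. The mean levels were 1.88 against 3.23 RPM in resting Th2, 0.706 against 2.76 in resting Th1 and 0.296 against 1.73 in naive. Ratios over input are a description, since input helped to choose the windows. Resting Th2 over input was 6.27 in the members and 5.43 in the windows without preference, a relative ratio of 1.15 (1.08 to 1.23). Naive over input was 0.990 against 2.91, a relative ratio of 0.340 (0.311 to 0.373), and resting Th1 over input 2.36 against 4.63, a relative ratio of 0.509 (0.472 to 0.549). Windows without preference that matched the members' middle range of stimulated Th2 reads, 14 to 18, gave a resting Th2 to resting Th1 ratio of 1.17 and a naive to input ratio of 3.02.

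Windows chosen by the same rule for stimulated Th1 also leaned towards their own resting library. Their levels at rest, and those of the Th17-preferring windows, differed from those of the members. In 1163 Th1-preferring windows, the mean levels were 0.851 RPM in naive, 1.13 in resting Th1 and 0.925 in resting Th2. Resting Th2 over resting Th1 was 0.819 there (0.766 to 0.875), where the windows without preference had 1.17. Relative to the latter it was 0.707 (0.661 to 0.757) in the 1136 Th1-preferring windows outside that set. Naive was already 2.84-fold over input in the Th1-preferring windows (2.64 to 3.05). In 485 Th17-preferring windows, resting Th2 over resting Th1 was 1.13 (0.972 to 1.31), an interval that includes 1, and naive was 1.35-fold over input (1.16 to 1.58). Of the 3 sets, the Th2-preferring windows thus had the lowest naive to input ratio and the highest resting Th2 to resting Th1 ratio. The mean naive level itself was nearly the same in Th17-preferring (0.298 RPM) and Th2-preferring windows (0.296 RPM). Th1- and Th2-preferring windows had nearly the same level in their own stimulated library, 4.38 and 3.98 RPM. Between them, the same-subset resting level was higher in Th2 (1.88 RPM in resting Th2) than in Th1 (1.13 RPM in resting Th1). These levels come from different libraries. In the windows without preference resting Th2 was also the higher, at 3.23 RPM against 2.76 in resting Th1.

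In single windows, most members had more reads in resting Th2 than in the other unstimulated libraries. Naive and resting Th1 were thinned to 1340208 reads for this count, since a shallow library otherwise wins ties in RPM. Resting Th2 then had more reads than both other libraries in 714 of 1205 members (59.3%, 56.4 to 62.0). Resting Th1 led in 133 (11.04%) and naive in 57 (4.73%), 123 were tied, and 178 had no read in any of the 3. Resting Th2 led in 41.3% of the windows without preference and in 19.7% of the Th1-preferring windows. At this depth 75.1% of members had at least 1 read in resting Th2, against 43.7% in resting Th1 and 26.1% in naive. At least 5 reads were reached by 17.5%, 4.07% and 0.581%. At full depth 159 members (13.2%) had 0 reads in all 3 unstimulated libraries, and a count of 0 allows up to 2.24 RPM in resting Th2, 1.66 in resting Th1 and 1.45 in naive. Those windows cannot be called empty.

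**Figure D2:**
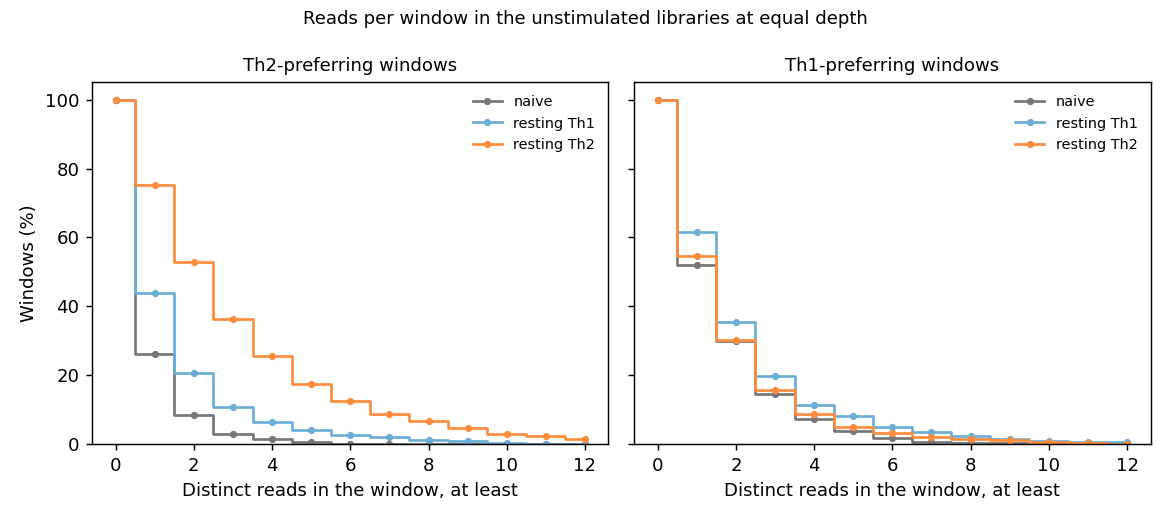
Percent of windows (y axis) with at least the given number of distinct reads (x axis) in naive, resting Th1 and resting Th2 at equal depth, for Th2-preferring (left) and Th1-preferring windows (right). On the left the lines separate, with 75.1, 43.7 and 26.1% of windows at 1 read or more in resting Th2, resting Th1 and naive; on the right they lie close together.

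The level condition of the rule, applied to the unstimulated libraries, was met by few members. At least 3 RPM and 3 times the input plus 0.3 was reached by 208 members in resting Th2 (17.3%, 15.2 to 19.5), by 52 in resting Th1 (4.32%) and by 3 in naive (0.249%). Over all windows with a read, 0.171% met it in resting Th2, 0.143% in resting Th1 and 0.0571% in naive. In the windows without preference the shares were 31.0%, 27.3% and 13.5%, and in those with 14 to 18 stimulated Th2 reads 22.5%, 19.5% and 8.34%. The members' shares were lower than both in all 3 libraries. Resting Th2 alone met it in 169 members, both resting libraries without naive in 38, resting Th1 alone in 13, and all 3 in 1. Naive alone met it in 2 members (0.166%, beside 1.70% and 1.87%). In 982 members (81.5%) none of the 3 met it, beside 59.6% and 67.9%, and 99.7% of all windows with a read.

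For single windows, a call needed at least 6 reads in the pair of libraries and a ratio of at least 2, with a library at 0 reads taken at 3 counts. Only 273 of 1205 members had 6 reads in the 2 resting libraries. Of those, 163 were higher in resting Th2 (59.7%) and 11 higher in resting Th1 (4.03%). Over all autosomal windows with 6 reads, 21.0% were higher in resting Th2 and 13.5% in resting Th1, and over the windows without preference 20.4% and 10.6%. Against naive, 188 of 221 members were higher in resting Th2, and 4 were lower. There 37.7% of all windows and 45.4% of those without preference were higher, and 10.4% and 6.45% lower. For resting Th1 against naive, 64 of 107 members were higher and 7 lower, beside 35.0% and 11.2% of all windows and 39.2% and 6.41% of those without preference. A window that reached 6 reads through resting Th2 alone had to differ, so these shares describe the better-covered members and not the set. The reverse does not hold, since 3 counts are worth 2.24 RPM in resting Th2, 1.66 in resting Th1 and 1.45 in naive. With 0 reads in resting Th2, 6 reads in resting Th1 or naive were too few for a call. The shares higher and lower are therefore not on equal terms, in the members or in the other windows.

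The resting difference grew with the strength of the preference after stimulation. The resting Th2 to resting Th1 ratio was 1.94 (1.75 to 2.15) in the 401 members whose stimulated Th2 level was under 3 times the higher of the other stimulated libraries. It was 2.53 in 333 members at 3 to under 4 times, 3.33 in 243 at 4 to under 6 times, and 4.87 (4.07 to 5.85) in 228 at 6 times or more. The end classes did not overlap in their intervals. Resting Th2 itself hardly moved across the 4 classes, at 1.71, 2.02, 1.98 and 1.84 RPM. Resting Th1 fell from 0.884 to 0.378 RPM and naive from 0.398 to 0.186 RPM, so the larger ratio came with lower values in the other libraries. By stimulated Th2 reads, in contrast, resting Th2 went from 1.40 RPM in 442 members with 13 or 14 reads to 3.06 RPM in 78 members with 25 or more, with naive at 0.289 and 0.260 RPM. In 324 members stimulated Th17 was the higher of the other 2 stimulated libraries, and in 881 stimulated Th1 was at or above it. The resting ratio was 3.03 (2.66 to 3.46) in the former and 2.55 (2.38 to 2.74) in the latter.

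**Figure D3:**
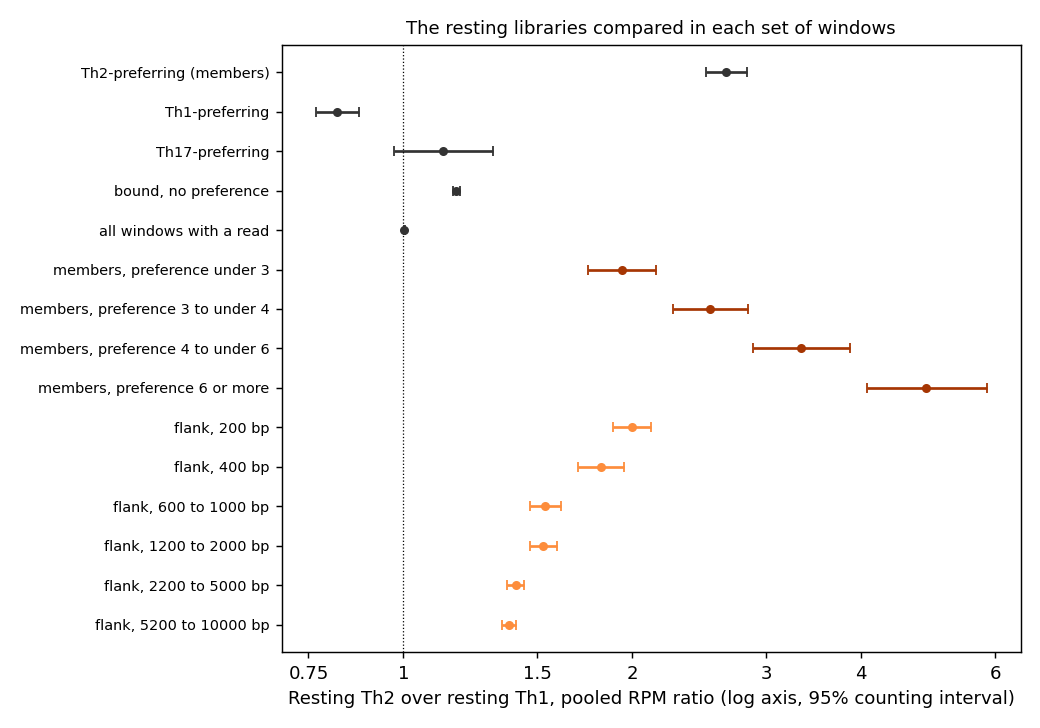
Pooled RPM ratio of resting Th2 over resting Th1 (x axis, log scale, points with 95% counting intervals) in the sets of windows, in 4 classes of the members by stimulated preference, and in flanking windows by distance. The members stand at 2.66 and the Th1-preferring windows at 0.819; classes of members run from 1.94 to 4.87, and the flanks fall from 2.00 to 1.38.

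Around the members, resting Th2 formed a narrow peak on a raised base. At the member window resting Th2 had 1.88 RPM, and in the windows 200 bp to either side, members left out, 0.918 RPM. The resting Th2 to resting Th1 ratio was 2.00 at 200 bp (1.88 to 2.12), 1.82 at 400 bp, 1.40 from 2200 to 5000 bp, and still 1.38 from 5200 to 10000 bp (1.35 to 1.41). Around Th1-preferring windows the same ratio was 0.995 at 200 bp (0.949 to 1.04) and 1.05 from 5200 to 10000 bp. Around the members, resting Th2 over naive fell from 3.15 at 200 bp to 1.68 at the outer distance. Naive was level with input at the member and slightly above it nearby. With other members counted, the windows 200 bp upstream by coordinate had 0.288 RPM in naive and 0.263 in input. At 600 bp upstream the values were 0.193 and 0.156, at 400 bp downstream 0.230 and 0.199, and at 10000 bp downstream 0.122 and 0.131. In the stimulated libraries, which chose the member windows, stimulated Th2 over stimulated Th1 dropped from 4.21 at the member to 1.61 at 200 bp and 1.19 from 5200 to 10000 bp. Stimulated Th17 had a slight dip at the member, 0.646 RPM against 0.710 RPM at 200 bp, where the rule asked for low values.

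**Figure D4:**
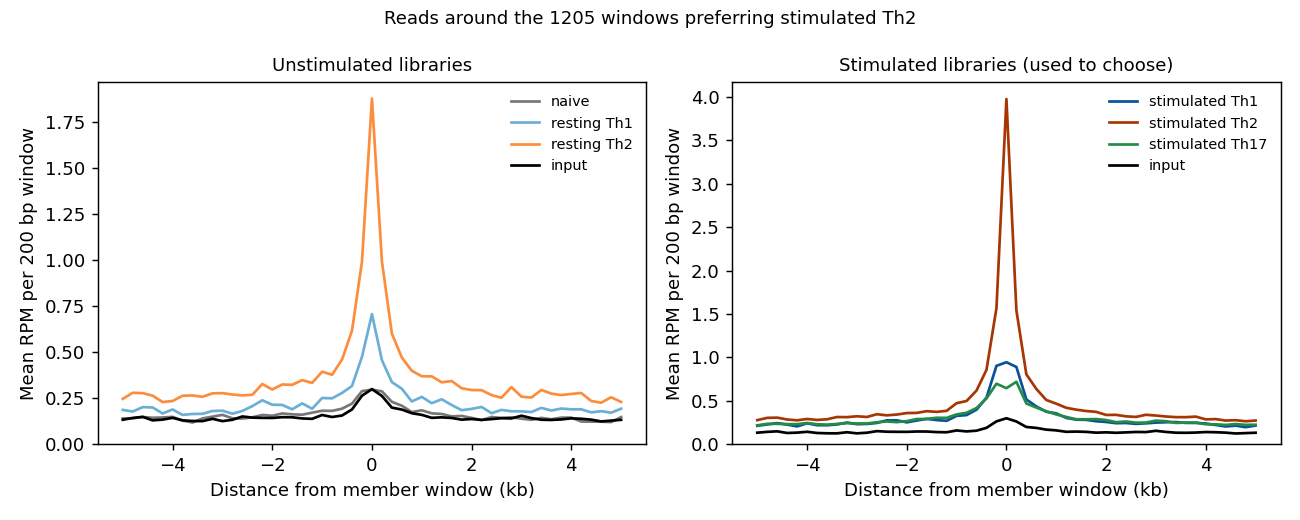
Mean RPM per 200 bp window (y axis) by distance from the member window (x axis, kb) in the unstimulated libraries and input (left) and in the stimulated libraries and input (right). Resting Th2 peaks at 1.88 RPM and resting Th1 at 0.706, while naive (0.296) lies close to input (0.299).

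The stimulated preference was smaller in reads that had not been used to choose the windows. When windows were chosen on 50% of the stimulated reads, 2488 met the rule, and in the reads not used to choose them stimulated Th2 over stimulated Th1 was 1.48 (1.44 to 1.52), against 4.66 in the reads used. Over stimulated Th17 it was 2.81 (2.73 to 2.89), against 5.86. Folds over stimulated Th17 start from a raised base, since stimulated Th2 over stimulated Th17 was already 1.93 in the windows without preference. Of the 2488, 298 (12.0%) met the rule again in the other reads. In those 2488 windows, resting Th2 over resting Th1 was 1.87 (1.80 to 1.95) in RPM. The windows without preference had 1.17 for that ratio and 1.01 for stimulated Th2 over stimulated Th1. The resting and stimulated ratios come from different libraries, so they are not ranked. The stimulated folds of the 1205 members, 4.21 over Th1 and 6.16 over Th17, come wholly from reads used in the choice, and no unused reads exist to check them at full depth.

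Windows just outside the thresholds also leaned towards resting Th2 over resting Th1, as did those just inside. The lowest stimulated Th2 count that met the level condition was 13 reads (3.05 RPM). The 230 members at that count had 1.39 RPM in resting Th2 and 0.529 in resting Th1, and the 300 windows 1 read below it (2.82 RPM) that met all other conditions had 1.24 and 0.581. Members at 2.5 to 2.6 times stimulated Th1 numbered 71, with 1.32 RPM in resting Th2 and 0.709 in resting Th1. The 70 windows just outside, at 2.4 to 2.5 times, had 2.25 and 1.24. At the stimulated Th17 edge, 23 windows on either side had 1.39 RPM (inside) and 1.91 RPM (outside) in resting Th2. At the input edge, 17 members had 1.54 RPM and 35 windows outside 1.71 RPM.

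The members were spread over all 19 autosomes and were mostly single windows. They made up 7.12% of the 16931 windows that met the level and input conditions in stimulated Th2, from 4.63% on chromosome 19 to 11.1% on chromosome 16. On every autosome resting Th2 over resting Th1 was above 1 with its interval, from 1.87 on chromosome 14 (1.40 to 2.49) to 4.48 on chromosome 16 (3.28 to 6.21). Joined over gaps of up to 1 window, the members formed 1150 runs, of which 1100 were single windows, 45 held 2 and 5 held 3. A window that met the level and input conditions in stimulated Th1 or Th17 lay within 1 kb of 231 members. There the resting Th2 to resting Th1 ratio was 1.85 (1.62 to 2.11), against 2.94 (2.74 to 3.16) in the other 974.

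**Figure D5:**
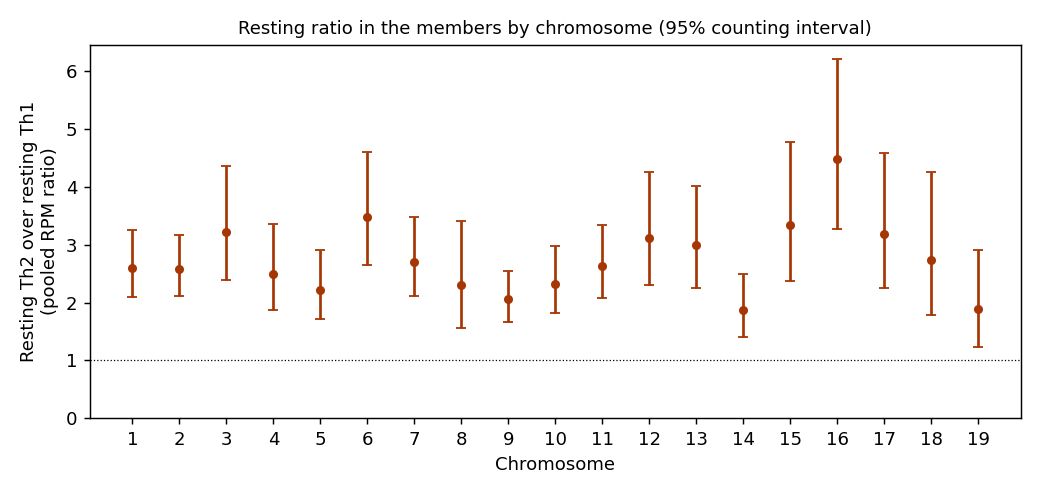
Pooled ratio of resting Th2 over resting Th1 in the members (y axis, points with 95% counting intervals) on each autosome (x axis); the dotted line marks equal RPM. All 19 points lie above 1, from 1.87 on chromosome 14 to 4.48 on chromosome 16.

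The 10 members with the most resting Th2 reads were picked on that count, so their high resting Th2 is a description. Resting Th2 over resting Th1 had an interval that includes 1 in 5 of them. At chr12:91814601-91814800 there were 21 reads in resting Th2, 4 in resting Th1 and 0 in naive, and 22 in stimulated Th2, 4 in stimulated Th1, 5 in stimulated Th17 and 1 in input. Resting Th2 was 7.08-fold over resting Th1 (2.39 to 28.4) and 10.8-fold over naive with naive taken at 3 counts (exact lower bound 8.05). In RPM this window was higher at rest, 15.7, than after stimulation, 5.16.

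At chr16:50290001-50290200 the reads were 14 in resting Th2 and 0 in both resting Th1 and naive, with 32 in stimulated Th2, 9 in stimulated Th1, 2 in stimulated Th17 and 3 in input. Resting Th2 was 6.30-fold over resting Th1 with resting Th1 taken at 3 counts (exact lower bound 4.47). Of the unstimulated libraries, resting Th2 was the one with reads there. At chr17:65100601-65100800 there were 19 reads in resting Th2, 5 in resting Th1, 0 in naive, 38 in stimulated Th2, 10 in stimulated Th1, 9 in stimulated Th17 and 0 in input, a resting ratio of 5.13 (1.85 to 17.6).

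Other windows of this group were bound at rest in both subsets. At chr2:62190201-62190400 there were 19 reads in resting Th2, 16 in resting Th1 and 6 in naive, and 18, 4 and 3 in stimulated Th2, Th1 and Th17. In RPM, resting Th2 had 14.2 and stimulated Th2 4.22. The resting ratio there was 1.60 (0.780 to 3.33), which does not separate the subsets. At chr11:11611801-11612000 the reads were 16 in resting Th2, 11 in resting Th1 and 0 in naive, and 13, 4 and 6 in stimulated Th2, Th1 and Th17. The ratio was 1.962 (0.855 to 4.68). Across the 10 members with the most resting Th2 reads, resting Th1 ranged from 0 to 16 reads with a median of 10, and naive from 0 to 6. In stimulated Th1 the same windows had 2 to 10 reads, and the rule asked for low values there. In RPM, the medians were 5.53 in resting Th1 and 1.28 in stimulated Th1.

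The windows with the firmest preference after stimulation, by the lower bound of stimulated Th2 over the next library, had a median of 5 resting Th2 reads, where all members had a median of 2. The 10 of them held 0 to 2 reads in stimulated Th1 and 1 to 5 in stimulated Th17, against 15 to 32 in stimulated Th2. Resting Th2 had 1 to 13 reads in them, resting Th1 0 to 2, and naive 0 or 1. At chr13:83293801-83294000 stimulated Th2 had 17 reads, stimulated Th17 1 and stimulated Th1 0, and resting Th2 had 10 with 0 in resting Th1, naive and input. Resting Th2 was 4.50-fold over resting Th1 there with resting Th1 taken at 3 counts (exact lower bound 3.02). At chr6:108288601-108288800, in contrast, 26 reads in stimulated Th2 went with 3 in resting Th2 and 0 in resting Th1 and naive, too few to compare.

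Runs of 3 member windows gave deeper counts. The run chr2:80302001-80302600 had 65 reads in stimulated Th2, 5 in stimulated Th1, 9 in stimulated Th17 and 4 in input, with 18 in resting Th2, 1 in resting Th1 and 0 in naive. Resting Th2 was 24.3-fold over resting Th1 (3.83 to 1012). In chr5:66584401-66585000 the reads were 58, 11, 21 and 0 in the same order, and 23 in resting Th2, 3 in resting Th1 and 3 in naive, a resting ratio of 10.3 (3.12 to 53.8). In the 3 members of chr10:98347201-98348000 there were 10 reads in resting Th2, 0 in resting Th1 and 2 in naive. The run chr6:115390401-115391000 had 13, 5 and 0 reads in those libraries, a ratio of 3.51 (1.17 to 12.6). The run chr5:103947801-103948600 differed, with 56 reads in stimulated Th2 over its members but only 3 in resting Th2, 1 in resting Th1 and 0 in naive.

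Other members had reads only in the stimulated libraries and input. The 5 members with the most stimulated Th2 reads and none in any unstimulated library had 24 to 30 reads in stimulated Th2, 2 to 10 in stimulated Th1, 1 to 15 in stimulated Th17 and 1 to 4 in input. At chr2:9063201-9063400 stimulated Th2 had 30 reads, stimulated Th1 9 and stimulated Th17 1. At chr11:119679001-119679200 the counts were 24, 2 and 4. Since 3 counts in resting Th2 amount to 2.24 RPM and these windows had 5.63 to 7.04 RPM in stimulated Th2, the 0 does not show that resting Th2 lacked BRG1 there.

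Whether levels within a subset were higher after stimulation than at rest depended on the scale, and the stimulated libraries also chose the windows. In RPM, stimulated Th2 over resting Th2 was 2.12 in the members (2.04 to 2.20), a value raised by the choice of windows high in stimulated Th2, and 1.58 in the windows without preference. Resting Th2 was at or above stimulated Th2 in RPM in 155 members (12.9%). That share was not computed for other windows, so whether it is high or low cannot be told. It is also coarse, since 1 read was worth 0.746 RPM in resting Th2 and 0.235 RPM in stimulated Th2. Stimulated Th1 over resting Th1 was 1.34 in the members, a value lowered by the choice, and 1.83 in the windows without preference. Scaled over the bound windows, with members chosen on that scale, stimulated over resting was 0.907 for Th2 and 0.470 for Th1 by the median ratio, and 1.29 and 0.709 by summed reads.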

How the data were processed

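BRG1 ChIP-seq libraries of 6 cell groups and 1 input library were read from the positions of aligned reads of 34 bases that the authors deposited. Each file lists chromosome, start, end and strand, with no score, count or signal of the authors. These positions are on mm9, per the submitters' processing notes; the aligner is not given in the sources used here. Chromosome Y was left out, 1 read was kept per chromosome, 5′ end and strand, 5′ ends were moved 75 bp inward, and reads were counted in autosomal windows of 200 bp tiled from base 0. RPM divides by all distinct reads of the library.

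Ratios pool reads over windows, with conditional exact (Clopper-Pearson) 95% intervals; ratios relative to the windows without preference have normal intervals on the log scale. PCR copies are not independent molecules, so all intervals cover counting error only. Percentages of windows have Clopper-Pearson intervals that treat windows as independent. A count of 0 was taken as 3 counts per library. The members, sets and lists were chosen with earlier results of these data known. Gene lists and motifs were not run, since no genome or annotation of mm9 was used here. Windows were named by fixed rules: the 10 with the largest lower bound of stimulated Th2 over the next stimulated library, the 10 with the most resting Th2 reads, the 5 longest runs, and the 5 with the most stimulated Th2 reads among those at 0 in all unstimulated libraries; a part of each is printed in full. The rule also called for the 3 windows nearest each threshold, but many tied, so bands are given. The thinning of naive and resting Th1, the distance to other bound windows, the scale by summed reads, and the alternatives for stimulated over resting and naive over input were chosen after the data were examined. Counting and ratios were tested on simulated data. Python 3.11.15, numpy 2.4.6, pandas 2.3.3 and scipy 1.17.1 were used.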

Additional observations from a re-analysis of the deposited data

Results flagged for a closer look

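Chromosome X was outside the rule. On it, 19 windows met the same level, preference and input conditions, while 2 windows met the level and preference conditions when the input took the place of stimulated Th2 (25 on the autosomes). The 19 windows held 57 reads in resting Th2, 53 in resting Th1 and 15 in naive. Resting Th2 over resting Th1 was 1.45 there (0.980 to 2.15), an interval that includes 1.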

How the results depend on the processing

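No paired analysis was possible because each group has 1 library. No alternative reversed the direction of the 3 ratios between unstimulated libraries. The number of member windows was 2309 with all reads kept, 471 at 4 times both other libraries, 150 at a level of 5 RPM, and 2488 on 50% of the stimulated reads, and stayed within 1.5 times 1205 in the other 8. The pooled resting Th2 to resting Th1 ratio was 2.3997 with 5′ ends not moved, 2.33 with all reads kept, 3.91 at 4 times, 1.87 on 50% of the reads, 3.14 at 5 RPM, 2.49 with stimulated libraries thinned to equal depth, 2.94 without members near windows bound in stimulated Th1 or Th17, and 2.25 and 2.34 under the scales by median and by summed reads. Resting Th2 over naive was 5.77 with ends moved 100 bp, 5.66 with windows tiled from base 100, 8.98 at 4 times, 3.48 on 50% of the reads, 10.3 at 5 RPM, 5.81 thinned, 7.36 without those near windows, and 3.13 and 3.66 under the scales. Resting Th1 over naive was 2.86 with all reads kept, 1.86 on 50% of the reads, 2.15 with windows from base 100, 3.29 at 5 RPM, and 1.39 and 1.56 under the scales. The percentage of testable members higher in resting Th2 was 36.6 at 3-fold, 75.8 at 4 times, 43.7 on 50% of the reads, 74.0 at 5 RPM, 66.4 with naive and resting Th1 thinned, and 50.7 and 51.7 under the scales. Stimulated over resting and naive over input were added to the alternatives after the data were examined. Stimulated Th2 over resting Th2 turned from 2.12 to 0.907 under the median scale, and was 1.29 under summed reads, 2.37 with all reads kept and 1.43 on 50% of the reads. Stimulated Th1 over resting Th1 turned from 1.34 to 0.470 and 0.709 under the scales, and was 1.24 with ends not moved, 1.103 at 4 times, 1.81 on 50% of the reads and 1.80 at 5 RPM. Naive over input was 0.783 at 4 times, 1.47 on 50% of the reads, 0.535 at 5 RPM and 0.884 without the near windows; it has no value under the scales, which have no factor for input. By construction, the stricter rules test fewer windows and 50% of the reads admit windows with fewer reads; the cause of the other shifts was not tested. Depth limits single windows most in resting Th2, where the level condition needs 5 reads.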

Other observations

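With gaps of up to 50 kb, a distance chosen after the data were examined, 371 of 1205 members fell in clusters of at least 2 (30.8%), and 41 clusters held at least 3. The shares were 31.5% of Th1-preferring and 26.4% of Th17-preferring windows. The cluster of 6 members at chr11:105286001-105310400 had 100 reads in stimulated Th2, 17 in stimulated Th1 and 11 in stimulated Th17 over its members, with 5 in resting Th2, 0 in resting Th1 and 3 in naive. Over its whole span of 24.4 kb, there were 62 reads in resting Th2, 25 in resting Th1 and 19 in naive. At chr16:50286601-50303000, 5 members held 28 reads in resting Th2, 4 in resting Th1 and 3 in naive, a resting ratio of 9.44 (3.30 to 37.1), and 101, 13 and 10 in stimulated Th2, Th1 and Th17. In 1.4 kb at chr6:115389601-115391000, 5 members held 17, 6 and 0 reads in resting Th2, resting Th1 and naive, a ratio of 3.82 (1.44 to 11.8). The 5 members spread over 103 kb at chr6:134638801-134741800 did not follow the others, with 3 reads in resting Th2, 5 in resting Th1 and 1 in naive.

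Reads of different libraries often began at the same base. Within the members, 34.8% of resting Th2 reads (33.1 to 36.5), 31.8% of resting Th1, 22.7% of naive and 39.5% of input reads shared position and strand with a stimulated Th2 read. Over all autosomes the shares were 6.70, 5.54, 3.51 and 3.10% in the same order. The members were chosen for many stimulated Th2 reads, so the 2 sets of shares are not on equal terms. For the 21 pairs of libraries, shared positions were 5.38 to 11.9 times as many as reads spread evenly over each window would give, and 8.13 to 11.9 times for the 6 pairs with input. Without the positions shared with stimulated Th2, resting Th2 over resting Th1 was 2.54 (2.36 to 2.74) and resting Th2 over naive 5.34 (4.86 to 5.87). Repeated reads made up 28.5% of all stimulated Th2 reads in the members, against 11.8% in that library as a whole. Of the members, 1050 (87.1%) had at least 3 stimulated Th2 reads on each strand. That library chose the windows, with at least 13 reads in each, and the share was not computed for other windows. It is a description only.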
